A study of Mus musculus with 5 samples.

Results

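The core circadian clock loop was examined in liver RNA as 10 genes of the 23793 in the expression table. The genes were chosen by symbol, and all 10 were found. They are the activators *Arntl* (the older symbol of *Bmal1*), *Clock* and *Npas2*, the repressors *Per1*, *Per2*, *Per3*, *Cry1* and *Cry2*, and the REV-ERB nuclear receptors *Nr1d1* and *Nr1d2*. The knockout group was 3 mice of the genotype Lifr fl/fl;Alb-Cre, written Lifrfl/fl;Crealb/alb in the sample labels, and the control group was 2 Lifr fl/fl mice without Cre. Both groups were C57BL/6, 12 weeks old by the labels, untreated as far as the labels say, and carried the floxed *Lifr* allele, in which LoxP sites flank 1 exon. In the knockout mice Cre is driven by the albumin promoter, which is active in hepatocytes. Bulk liver RNA does not show whether *Lifr* is intact in the other cells of the liver. There was no group with Cre but without the floxed allele, so Cre and the loss of *Lifr* cannot be told apart. The mice were male by the reporting summary of the study and were housed in a light-dark cycle. The time of day at which livers were collected is not given in the sources used here, and neither is feeding before collection. A difference in collection time between the groups and a difference in genotype cannot be told apart.

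In almost every mammalian cell, the proteins CLOCK and BMAL1 pair up and switch on the *Per* and *Cry* genes at DNA sites called E-boxes. PER and CRY proteins then gather, enter the nucleus and block CLOCK and BMAL1, which closes a loop that turns about once a day. REV-ERBα and REV-ERBβ, the products of *Nr1d1* and *Nr1d2*, are switched on by the same pair and repress *Arntl* in a second loop, in competition with the ROR receptors. In the liver the clock times glucose, lipid and bile acid metabolism, and the mRNA of most of these genes swings widely over the day, so its level in a single collection also carries the hour of that collection.

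The starts of these genes hold some of the DNA sites through which the loop is wired, and the stretches that hold one are shown because the levels described after them belong to these genes. RefSeq promoter windows of GRCm38.p6, the assembly behind mm10, run from 250 bases before to 50 bases after a gene's start, and 9 of the 10 genes, all but *Per2*, matched the table, with 13 windows. Both strands were searched for the E-box CACGTG, the E′-box CACGTT, the D-box TTANGTAA, the RORE, the CRE TGACGTCA and the glucocorticoid palindrome GNACANNNTGTNC. The capitals mark the matched letters, read 5′ to 3′ on the strand of the gene, where an E′-box on the other strand reads AACGTG.
Per1 E-box (chr11:69098763-69098808, plus strand): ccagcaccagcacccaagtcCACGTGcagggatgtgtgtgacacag
Cry1 E′-box and E-box (chr10:85185089-85185153, minus strand): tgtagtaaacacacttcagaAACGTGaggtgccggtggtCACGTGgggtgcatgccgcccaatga
Cry2 E′-box (chr2:92434210-92434255, minus strand): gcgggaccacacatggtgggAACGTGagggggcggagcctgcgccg
Nr1d1 E′-box (chr11:98775380-98775425, minus strand): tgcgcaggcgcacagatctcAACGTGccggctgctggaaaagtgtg
Per3 D-boxes (chr4:151044796-151044890, minus strand): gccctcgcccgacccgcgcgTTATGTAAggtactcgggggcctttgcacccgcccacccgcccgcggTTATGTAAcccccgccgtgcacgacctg
Arntl RORE (chr7:113207528-113207556, plus strand): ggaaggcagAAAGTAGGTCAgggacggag

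An E-box or E′-box was present in windows of 4 genes, namely *Per1*, *Cry1*, *Cry2* and *Nr1d1*. Of 32851 mouse windows of the same length, 7.15% hold the E-box, 4.68% the E′-box and 11.4% at least 1 of the pair. These shares count single windows, whereas the 4 genes are counted over the 13 windows of 9 genes. *Per3* had 2 copies of the D-box, the site of DBP, TEF, HLF and NFIL3, which 2.32% of windows hold. *Arntl* had the RORE, the site that ROR and REV-ERB receptors share, which 0.384% of windows hold. It began 27 bases after the start used, whereas the E-box of *Per1* began at position -166 and the E′-box of *Nr1d1* at position -28, counted from their starts. The windows with the matches of *Per1* and *Arntl* begin at 69098699 and 113207261, inside gene spans that begin at 69095108 and 113178471. The starts used for them are thus not the first bases of those spans. The other window of *Per1* held no match. The CRE, held by 1.79% of windows, and the glucocorticoid palindrome, held by 0.475%, matched no window of these 9 genes, and none of the 6 patterns matched a window of *Clock*, *Npas2* or *Nr1d2*. A match is a match of letters and no evidence of binding, and the windows leave out more distant sites.

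Expression was given as FPKM, mapped fragments scaled by transcript length and by the mapped fragments of the library, which allows levels of different genes to be set side by side. As a check of the labels, *Lifr* was at 32.8, 44.3 and 54.8 FPKM in knockout livers, against 132 and 151 FPKM in control livers, a log2 fold change of -1.71 (standard error (SE) 0.19, adjusted p = 0.0045 from limma, lost without a filter on low values, adjusted p = 0.062). In the table, each gene's values are sorted as text within a group (15586 of 15586 genes with distinct values), so a column does not stand for a mouse and the values of a group are given from lowest to highest. Depth is unknown for FPKM alone, so no counting interval is given. Among 6 hepatocyte markers, *Alb* is listed at 0 in all 5 libraries, which was not read as an absence of its mRNA. The other 5 lay at 177 FPKM or more in every knockout library and 160 FPKM or more in every control library. In bulk liver, fewer cells of a type and less RNA per cell cannot be told apart.

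No gene of the core loop passed the threshold for a difference between knockout and control livers. The *Per1* and *Per2* levels of all 3 knockout livers stood above those of both control livers, and the *Nr1d1* and *Arntl* levels of all 3 stood below. The other genes had overlapping groups, apart from *Npas2*, which was close to 0 throughout. Of the 10 genes, 9 reached the minimum mean of 0.5 FPKM and were tested with limma on log2(FPKM + 0.1) together with the rest of 11687 genes, and p-values were adjusted over all 11687 by the Benjamini-Hochberg method. Of these 9, 0 were higher and 0 lower at an adjusted p under 0.05, where 0.359% of all genes tested were higher and 0.205% lower. The smallest adjusted p of a clock gene was 0.29. At an unadjusted p under 0.05 there were 3 of the 9, *Per1*, *Per2* and *Nr1d1*, against 9.63% of all genes. All 3 knockout values were above both control values in 2 of the 9 (15.1% of all genes), and below both in 2 of the 9 (10.7% of all genes). The log2 fold change was above 0 for 5 genes and below 0 for 4, with a median of 0.04, and over all genes tested the median was 0.03 with 54.9% above 0. With 3 livers against 2, an exact two-sided permutation test of 1 gene has 10 arrangements and cannot go below p = 0.1, and the 10 genes gave exact p-values of 0.1 (*Arntl*) to 1.

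**Figure D1:**
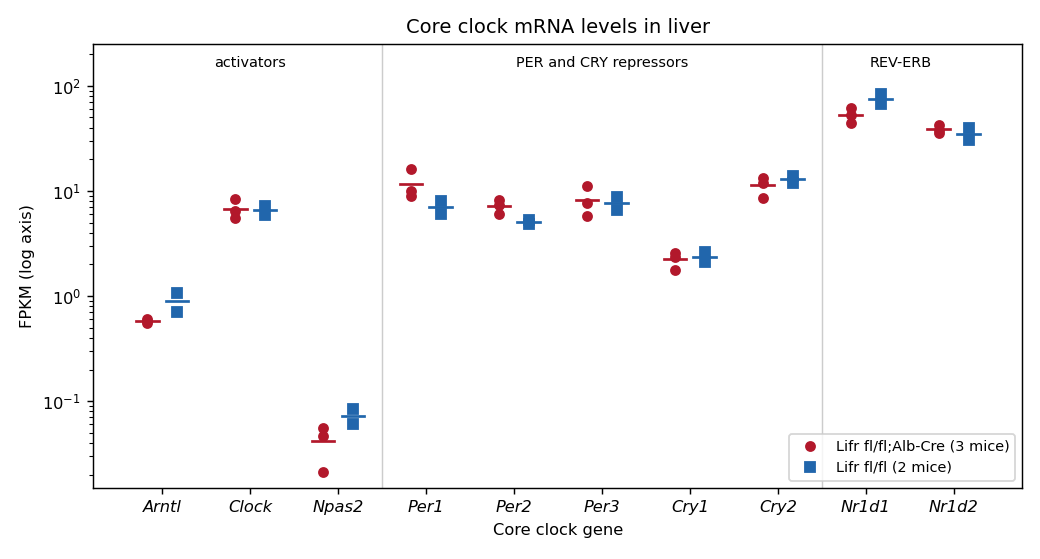
FPKM of the 10 core clock genes on a log axis, with each point 1 liver and each bar the group mean, for Lifr fl/fl;Alb-Cre livers (red circles, 3 mice) left of Lifr fl/fl livers (blue squares, 2 mice). *Nr1d1* is highest in both groups at a mean of 52.8 FPKM in knockout and 75.6 FPKM in control livers, *Npas2* is lowest, and the groups stand apart for *Arntl*, *Npas2*, *Per1*, *Per2* and *Nr1d1*.

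Among the activators, the data hold a low *Arntl*, a well expressed *Clock* and hardly any *Npas2*. *Arntl* (XLOC_018804, chromosome 7 from 113178471 to 113314126 of mm10) encodes BMAL1, the partner without which the loop stops. It was at 0.551, 0.577 and 0.602 FPKM in knockout livers, against 0.710 and 1.07 FPKM in control livers. The knockout values lay close together below both control values, which were themselves far apart. The mean was 0.577 ± 0.0258 FPKM in knockout livers (SD, n = 3) and 0.889 ± 0.253 FPKM in control livers (SD, n = 2). The log2 fold change was -0.52 (SE 0.25, 95% interval -1.08 to 0.03, adjusted p = 0.54), and it ran between -0.79 and -0.26 as 1 of the 5 values was left out in turn. At such a level the added 0.1 FPKM makes a fold change smaller, and the ratio of the means, knockout over control, was 0.649. Its mean over all 5 livers is at the lower end of the genes tested, with 4.18% of them at or below it.

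*Clock* (XLOC_016314, chromosome 5 from 76209868 to 76305603) encodes the partner of BMAL1 in the activating pair. Its values were 5.54, 6.42 and 8.36 FPKM in knockout livers and 5.90 and 7.16 FPKM in control livers. The groups overlapped, and the log2 fold change was 0.04 (SE 0.18, 95% interval -0.36 to 0.44, adjusted p = 0.96). *Npas2* (XLOC_000081, chromosome 1 from 39193702 to 39363240) encodes a relative of CLOCK that can take its place beside BMAL1. It was at 0.0212, 0.0471 and 0.0558 FPKM in knockout livers, against 0.0603 and 0.0842 FPKM in control livers. All 3 knockout values lay below both control values, but every value was under 0.1 FPKM. The gene missed the minimum for testing, and in a fit with no filter its log2 fold change was -0.29 (95% interval -0.69 to 0.11, adjusted p = 0.72).

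Of the *Per* genes, whose proteins carry the delay of the loop, *Per1* and *Per2* had higher values in the knockout livers and *Per3* did not separate the groups. *Per1* (XLOC_002754, chromosome 11 from 69095108 to 69109965), for which 1 window above holds an E-box, is also switched on quickly by glucocorticoids. It was at 8.92, 10.05 and 16.0 FPKM in knockout livers, against 5.99 and 8.04 FPKM in control livers. The groups did not overlap, but the lowest knockout value was near the higher control value and the highest knockout value stood well above the rest. On average it was at 11.7 ± 3.81 FPKM in knockout livers (SD, n = 3) and 7.01 ± 1.45 FPKM in control livers (SD, n = 2). The fitted level was 1.62 times that of control livers (95% interval 1.13 to 2.32), a log2 fold change of 0.69 (SE 0.23, unadjusted p = 0.014, adjusted p = 0.35 from limma). Without the highest knockout value the log2 fold change was 0.44, the lowest of the 5 such fits, and the highest was 0.90.

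*Per2* (XLOC_000939, chromosome 1 from 91415977 to 91459351) encodes the PER protein on which rhythms in mice depend most. Its levels were 6.06, 7.39 and 8.25 FPKM in knockout livers, against 4.82 and 5.34 FPKM in control livers. Again all knockout values were above both control values, and the SD of the control pair, as a share of its mean, was the smallest of the 10 genes. The mean of knockout livers was 7.23 ± 1.10 FPKM (SD, n = 3) and that of control livers 5.08 ± 0.372 FPKM (SD, n = 2), with a fitted level 1.41 times that of control livers (95% interval 1.11 to 1.78). Its log2 fold change was 0.49 (SE 0.15, unadjusted p = 0.0097, adjusted p = 0.29 from limma) and stayed between 0.39 and 0.61 with 1 value left out.

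*Per3* (XLOC_015337, chromosome 4 from 150997018 to 151044707), the gene with the D-boxes, encodes a PER protein that mice can lose with a mild effect on their rhythm. Its values of 5.80, 7.72 and 11.2 FPKM in knockout livers spanned those of 6.55 and 8.67 FPKM in control livers. No difference could be seen, with a log2 fold change of 0.08 (SE 0.24, 95% interval -0.46 to 0.62, adjusted p = 0.93). The spread over knockout livers, an SD of 33.2% of the mean, was close to that of *Per1* at 32.7%.

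The *Cry* genes encode the strongest repressors of CLOCK and BMAL1, and neither separated the groups. *Cry1* (XLOC_002216, chromosome 10 from 85131700 to 85185054) was at 1.78, 2.37 and 2.56 FPKM in knockout livers, against 2.09 and 2.64 FPKM in control livers. *Cry2* (XLOC_012370, chromosome 2 from 92403646 to 92434085) was at 8.55, 12.0 and 13.3 FPKM in knockout livers, against 11.8 and 13.9 FPKM in control livers. In both genes the lowest of the 5 values was a knockout value and the highest a control value, with the groups overlapping between them. The log2 fold change of *Cry1* was -0.08 (SE 0.19, 95% interval -0.52 to 0.35, adjusted p = 0.91). For *Cry2* it was -0.21 (SE 0.18, 95% interval -0.62 to 0.20, adjusted p = 0.76). An opposite-strand gene, *D930015M05Rik*, shares 295 exonic bases with *Cry2*, 4.67% of its exonic bases in GENCODE M21, and reads of the 2 cannot be told apart there unless strand was used, which the sources used here do not state.

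The 2 REV-ERB genes were the most abundant of the loop, and only the values of *Nr1d1* separated the groups. *Nr1d1* (XLOC_003906, chromosome 11 from 98767932 to 98775377), which encodes REV-ERBα, was at 44.3, 52.6 and 61.4 FPKM in knockout livers, against 67.2 and 84.0 FPKM in control livers. All 3 knockout values were below both control values, and the highest knockout value was near the lower control value. The mean was 52.8 ± 8.54 FPKM in knockout livers (SD, n = 3) and 75.6 ± 11.9 FPKM in control livers (SD, n = 2). Its log2 fold change was -0.52 (SE 0.16, unadjusted p = 0.0094, adjusted p = 0.29 from limma), a fitted level of 0.697 times that of control livers (95% interval 0.542 to 0.895). The log2 fold change lay between -0.68 and -0.36 with 1 value left out.

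*Thra*, the gene of a thyroid hormone receptor on the other strand, shares 263 exonic bases with *Nr1d1*, 8.55% of the exonic bases of *Nr1d1*. *Thra* was at 3.81, 4.87 and 4.88 FPKM in knockout livers, against 5.31 and 6.07 FPKM in control livers, a log2 fold change of -0.33 (adjusted p = 0.53). Its knockout values, too, were all below both control values, and without strand the shared bases cannot be told apart. *Nr1d2* (XLOC_006345, chromosome 14 from 18204056 to 18239106) encodes REV-ERBβ, which overlaps with REV-ERBα in function. It was at 35.4, 37.8 and 42.5 FPKM in knockout livers, against 30.7 and 39.4 FPKM in control livers. The groups overlapped and the log2 fold change was 0.14 (SE 0.14, 95% interval -0.18 to 0.46, adjusted p = 0.78).

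**Figure D2:**
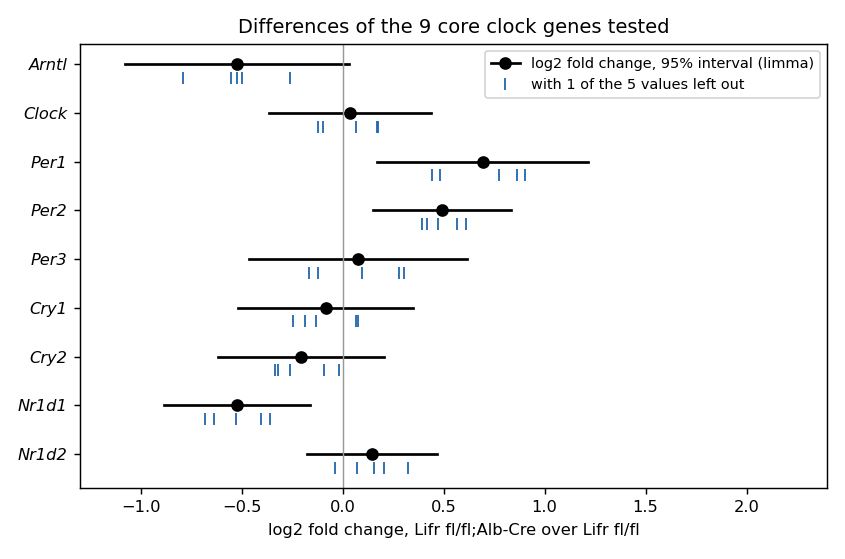
Log2 fold change of the 9 core clock genes tested, Lifr fl/fl;Alb-Cre over Lifr fl/fl, with points for the estimate, black lines for its 95% interval from limma and blue ticks for the estimate with 1 of the 5 values left out. The intervals of *Per1*, *Per2* and *Nr1d1* leave out 0 before adjustment over all genes, and the ticks of *Clock*, *Per3*, *Cry1* and *Nr1d2* fall on both sides of 0.

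By mean FPKM the order in knockout livers was *Nr1d1*, *Nr1d2*, *Per1*, *Cry2*, *Per3*, *Per2*, *Clock*, *Cry1*, *Arntl* and *Npas2*. In control livers it was *Nr1d1*, *Nr1d2*, *Cry2*, *Per3*, *Per1*, *Clock*, *Per2*, *Cry1*, *Arntl* and *Npas2*. The first 2 places and the last 3 were the same in both groups. From *Per1* to *Clock* in knockout livers, each gene overlapped the next in its values, so that stretch of the order does not go beyond the spread over livers. The overlapping neighbours in control livers were *Per3* with *Per1* and *Per1* with *Clock*. The SD as a share of the mean ran from 4.47% (*Arntl*) to 33.2% (*Per3*) over the 9 genes in knockout livers, and from 7.33% (*Per2*) to 28.5% (*Arntl*) in control livers, where it rests on 2 mice.

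Because daily phase shows in the balance between genes that peak at different hours, the FPKM of each of the 9 tested genes was divided by that of each other, 36 pairs in all. As the values follow no mouse, the lowest and highest ratio that any mouse could have was computed for each group, and a pair was called apart where these ranges did not overlap. For *Per1* over *Nr1d1* the range was 0.145 to 0.361 in knockout livers, against 0.0713 to 0.120 in control livers. For *Per2* over *Nr1d1* it was 0.0987 to 0.186 in knockout livers, against 0.0573 to 0.0795 in control livers. So whichever values belonged together, each knockout liver had more *Per1* and *Per2* mRNA for its *Nr1d1* mRNA than either control liver. This was fixed by the single-gene values. All knockout values of *Per1* and *Per2* were above both control values, and all those of *Nr1d1* were below. The ratio of group means of *Per1* to *Nr1d1* was 0.221 in knockout livers and 0.0928 in control livers.

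*Arntl* stood low beside 3 other genes, which for *Per1* and *Per2* was likewise fixed by the single-gene values. Its ratio to *Per1* was 0.0344 to 0.0675 in knockout livers, against 0.0883 to 0.178 in control livers, and its ratio to *Per2* was 0.0667 to 0.0994 in knockout livers, against 0.133 to 0.222 in control livers. The ratio of *Arntl* to *Nr1d2* was 0.0130 to 0.0170 in knockout livers, against 0.0180 to 0.0348 in control livers, a narrow gap. The last pair apart was *Per2* over *Cry2*, at 0.455 to 0.965 in knockout livers, against 0.348 to 0.451 in control livers, with the ranges all but touching. *Arntl* over *Nr1d1*, both with low knockout values, overlapped at 0.00897 to 0.0136 in knockout livers and 0.00845 to 0.0159 in control livers. In all, 6 of the 36 pairs were apart, where 13.3% of all pairs of 11646 genes were, so the number of pairs apart is near the background and is no result about the clock genes. The pairs share genes and are not independent of the single-gene values.

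**Figure D3:**
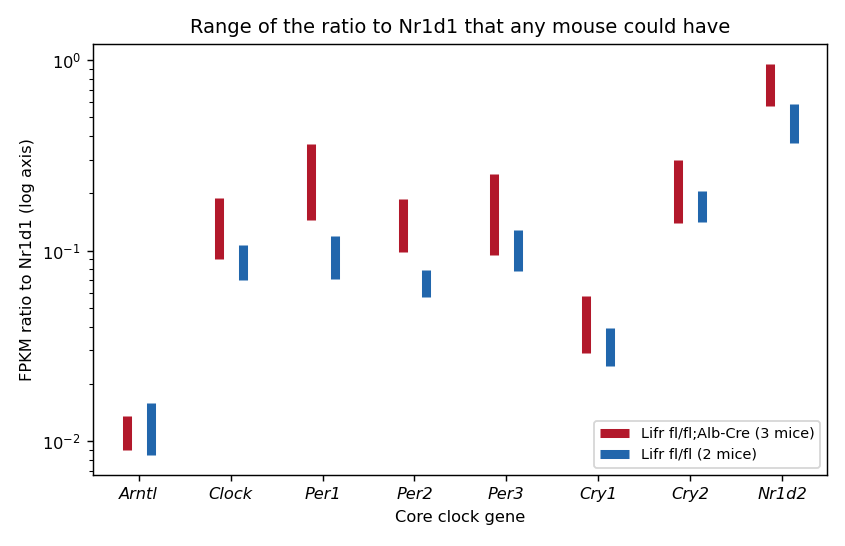
FPKM ratio of 8 core clock genes to *Nr1d1* on a log axis, with each bar the range from the lowest to the highest ratio that any mouse could have, for Lifr fl/fl;Alb-Cre (red, 3 mice) left of Lifr fl/fl (blue, 2 mice). The bars of *Per1* (0.145 to 0.361 in knockout, 0.0713 to 0.120 in control livers) and *Per2* (0.0987 to 0.186 in knockout, 0.0573 to 0.0795 in control livers) do not overlap, and those of the other 6 genes do. For *Per1* and *Per2* this was fixed by the single-gene values.

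Beyond the core loop, 27 modifiers and outputs of the clock were looked up and 25 were tested, since *Arntl2* and *Rorb* were under 0.5 FPKM. *Noct* rose in the knockout livers, 1 of the 25 (0.359% of all genes tested were higher), and 0 of the 25 fell (0.205% were lower). *Noct* (XLOC_012949, listed under its older symbol *Ccrn4l*, chromosome 3 from 51224447 to 51251654) encodes nocturnin, a rhythmic phosphatase of NADP(H). It was at 16.5, 20.01 and 24.9 FPKM in knockout livers, against 8.50 and 9.80 FPKM in control livers. All knockout values were far above both control values, and the log2 fold change was 1.14 (SE 0.17, 95% interval 0.75 to 1.52, adjusted p = 0.023). The call was lost without the middle knockout value (adjusted p = 0.052), without the lower (0.12) or the higher (0.059) control value, without the filter on low values (0.15) and without the trend in limma (0.078). At an unadjusted p under 0.05 there were 5 of the 25, all higher in knockout livers, against 9.63% of all genes. Of the 25 log2 fold changes 17 were above 0, against 54.9% of all genes, and the median was 0.06, against 0.03. All 3 knockout values were above both control values in 6 of the 25, against 15.1% of all genes. They were below both in 2 of the 25, which is near the 10.7% of all genes.

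The other 4 genes at an unadjusted p under 0.05 were *Ciart*, *Usp2*, *Nampt* and *Bhlhe40*, of which the first 3 are named after their values were seen. *Ciart*, which encodes the repressor CHRONO, was at 11.5, 12.6 and 20.4 FPKM in knockout livers, against 6.02 and 6.87 FPKM in control livers, a log2 fold change of 1.14 (SE 0.22, adjusted p = 0.061). It passed the threshold without its lowest (adjusted p = 0.044) or its highest (0.039) knockout value. *Usp2*, the gene of a ubiquitin protease that acts on clock proteins, was at 16.9, 22.0 and 34.1 FPKM in knockout livers, against 11.4 and 13.7 FPKM in control livers (adjusted p = 0.21). *Nampt*, which encodes the rate-limiting enzyme of NAD salvage, was at 20.2, 20.5 and 24.4 FPKM in knockout livers, against 13.3 and 16.1 FPKM in control livers (adjusted p = 0.18). In these 3 genes the groups did not overlap and the knockout values were the higher ones. The 2 genes whose groups stood apart the other way were *Nfil3*, which encodes a repressor at the D-box, and *Bhlhe41*, which encodes the E-box repressor DEC2, both also named after their values were seen. *Nfil3* was at 5.18, 5.45 and 5.77 FPKM in knockout livers, against 6.22 and 6.75 FPKM in control livers, a log2 fold change of -0.24 (adjusted p = 0.59). *Bhlhe41* was at 3.68, 3.80 and 3.998 FPKM in knockout livers, against 4.19 and 4.298 FPKM in control livers, a log2 fold change of -0.15 (adjusted p = 0.75).

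By level, the most abundant of the other clock genes were *Dbp*, *Bhlhe40* and *Tef*. *Dbp*, a PAR-bZIP activator that acts through the D-box and is a direct output of CLOCK and BMAL1, was at 48.4, 79.6 and 81.9 FPKM in knockout livers, against 77.8 and 88.5 FPKM in control livers. One knockout value was well below the other values, the groups overlapped, and the log2 fold change was -0.28 (95% interval -0.76 to 0.19, adjusted p = 0.71). *Tef*, a relative of *Dbp*, was at 41.7, 56.5 and 71.3 FPKM in knockout livers, against 42.5 and 55.4 FPKM in control livers, a log2 fold change of 0.19 (adjusted p = 0.81). *Bhlhe40*, which encodes the E-box repressor DEC1, was at 73.4, 75.8 and 80.4 FPKM in knockout livers, against 62.2 and 65.5 FPKM in control livers. Its groups stood apart with little spread in either, yet the log2 fold change was only 0.26 (SE 0.11, adjusted p = 0.51).

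**Figure D4:**
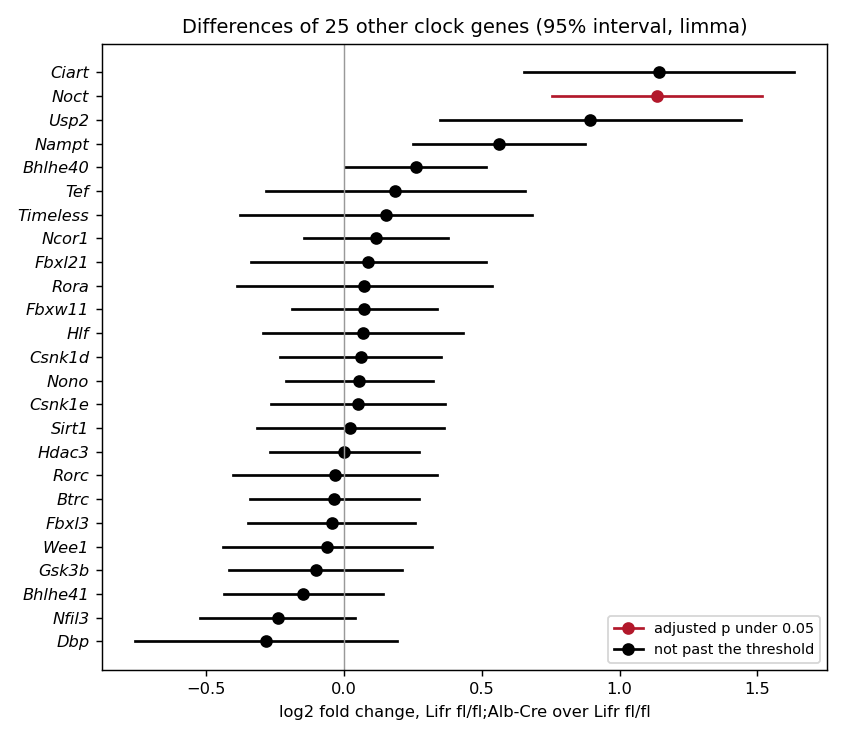
Log2 fold change, Lifr fl/fl;Alb-Cre over Lifr fl/fl, of the 25 other clock genes tested, in order of size, with 95% intervals from limma. *Noct* (red) alone has an adjusted p under 0.05, *Ciart* has the same log2 fold change of 1.14 with a wider interval, and the other 23 lie between -0.28 and 0.89.

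As *Per1* is also a target of the glucocorticoid receptor, 12 other genes induced by glucocorticoids were set beside it. The list was written with earlier results of these data known, so its counts are a description only. In each of the 12 the log2 fold change was positive (54.9% of all genes tested), and its median was 0.91 (0.03 over all genes). The SD over knockout livers ran up to 99.0% of the mean (*Mt2*). All 3 knockout values were above both control values in 8 of the 12 (15.1% of all genes), 8 had an unadjusted p under 0.05 (9.63% of all genes), and 2 rose at an adjusted p under 0.05 (0.359% of all genes). These were *Tsc22d3*, which encodes the glucocorticoid-induced leucine zipper, with a log2 fold change of 1.26 (adjusted p = 0.048), and *Ddit4*, an inhibitor of mTOR signaling, with 1.09 (adjusted p = 0.040). *Tsc22d3* was at 59.8, 63.4 and 106 FPKM in knockout livers, against 28.0 and 33.8 FPKM in control livers. Both calls were lost without either control value or the middle knockout value (adjusted p between 0.059 and 0.21), and that of *Ddit4* also without its highest knockout value (0.096). Both were also lost without the filter on low values (0.24 and 0.20), without the trend (0.14 and 0.086) and with 1 FPKM added in place of 0.1 (0.056 and 0.054), and that of *Tsc22d3* with the median shift of all genes removed (0.054). The part of glucocorticoid signaling in the *Per1* values was not tested.

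Markers of the cell types of the liver were read in the same fit. Each of the 7 Kupffer cell markers averaged more in knockout livers (median log2 fold change 0.50), and 5 had all knockout values above both control values (15.1% of all genes). None of the 7 passed the threshold, and 5 had an unadjusted p under 0.05 from limma (9.63% of all genes). The summed level of these 7 could lie between 219 and 302 FPKM in a knockout liver, against 169 and 186 FPKM in a control liver, and none was at 0. Of 5 neutrophil markers 3 were tested, and *S100a9*, a subunit of calprotectin, rose with a log2 fold change of 1.59 (adjusted p = 0.018, lost without the lower control value at 0.071 and without the filter at 0.15). The summed neutrophil level could lie between 6.13 and 10.5 FPKM in a knockout liver, against 2.29 and 3.67 FPKM in a control liver. Most of that sum came from *S100a8* and *S100a9*. The groups overlapped for *Retnlg*, also tested, at 0.375, 0.486 and 0.915 FPKM in knockout livers, against 0.408 and 0.465 FPKM in control livers. Its adjusted p was 0.82 from limma. *Ngp* was at 0.156 FPKM or less in every liver. The median log2 fold change was 0.00 for the 5 hepatocyte markers tested, -0.05 for 6 endothelial, -0.18 for 6 stellate and 0.12 for 4 cholangiocyte markers, and 0 of these 21 passed the threshold (0 at an unadjusted p under 0.05, limma). Of 5 B and T cell markers 2 were tested (median log2 fold change -0.18), and of 4 erythroid markers 1 (0.35), with 0 past the threshold. The part of Kupffer cells and neutrophils in the levels of the clock genes was not tested.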

How the data were processed

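Per the labels and the methods of the study, liver RNA was sequenced and reads were mapped to mm10. The submitters' processing notes name FastQC 0.11.5, TopHat2 2.1.1, SAMtools 1.5 and Cufflinks 2.2.1. The deposited values are FPKM estimated by the authors with Cufflinks and a RefSeq annotation. The table also holds the fold change, p-values and call of the authors' Cuffdiff comparison, which were not used. Strand and depth are not given in the sources used here, so precision rests on the spread between mice.

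The 11687 genes that averaged 0.5 FPKM or more (of 17270 above 0 in at least 1 library) were compared on log2(FPKM + 0.1) with limma 3.58.1 in R 4.3.3 (lmFit, eBayes with a trend, two-sided). The Benjamini-Hochberg adjustment ran over all 11687, and the threshold was 0.05. The procedure was tested on simulated data with larger changes than any fitted for a clock gene here. That test does not cover changes of their size. Alternatives were another pseudocount, filter, threshold or variance model, the median shift removed, genes listed at 0 in 1 group removed, and 1 value left out. No likeness of patterns and no scaling between libraries was computed, since columns follow no mouse.

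All 10 core genes were named, and of the other clock genes those past the threshold and the most abundant up to 4. *Ciart*, *Usp2*, *Nampt*, *Nfil3* and *Bhlhe41* were named outside this rule, after their values were seen. The members and lists were chosen with earlier results of these data known. Coordinates come from RefSeq (mm10), and overlaps of exons from GENCODE M21.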

Additional observations from a re-analysis of the deposited data

How the results depend on the processing

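No core clock gene passed the threshold in either direction under any alternative run. Another filter, no trend in limma or the removal of other genes does not alter a gene's own log2 fold change. Such refits could not turn its direction. Of 107 refits of single genes, such ones included, 100 kept the direction of the log2 fold change and 7 turned it. All 7 left out 1 value, and with each value left out in turn the log2 fold change ran from -0.12 to 0.18 for *Clock*, -0.17 to 0.30 for *Per3*, -0.24 to 0.077 for *Cry1* and -0.036 to 0.32 for *Nr1d2*. The count of other clock genes that were higher was 1 in the reported fit, 0 without a filter on low values and 0 without the trend. It was 2 at an adjusted p under 0.1 and 0 where a log2 fold change beyond 1.5 was also required. With 1 knockout value per gene left out at random it was 1 to 2. It fell below the reported fit in each draw that left out 1 control value instead, which leaves 1 control liver. Over all genes, 42 were higher and 24 lower in the reported fit, against 11 and 5 without the filter, 21 and 11 without the trend, 68 and 41 at an adjusted p under 0.1, 15 and 11 with the fold change required, and 5 to 53 and 6 to 36 with 1 value left out. The cause was not tested. Where 1 control value was left out, the remaining one is assumed to vary like the knockout values. No paired analysis was possible because the columns follow no mouse, although the labels of the groups share the numbers 2 and 3. With 2 control livers, no collection time in the sources used here and unknown depth, a difference in clock phase could not be measured.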
